A study of Rattus norvegicus with 8 samples.

Results

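The cytosolic ribosomal protein genes encode the proteins of the ribosome that works outside the mitochondria. They were picked by symbol, from the probes whose accession matched a rat gene named Rpl, Rps, Rplp or Rpsa, with the ribosomal S6 kinases left out. The rule named 77 genes among the 13031 symbols named on the array, through 112 probes. Of these, 71 were parental genes, 28 of the small subunit and 43 of the large, and 6 were like copies or paralogues. All 71 parental genes and 5 of the copies passed the filter on dim probes, so 76 genes were tested among 25128 features. The copy Rps12l4 was well above background on 1 Eucommia array and 1 Control array and was not tested. The other 6 genes of a list of 77 parental genes were not analysed here.

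The 8 samples were livers of male Wistar/ST rats in 2 groups of 4, all on a diet rich in fat with fructose-rich drinking water. The Eucommia group also drank an extract of the leaves of the tree Eucommia ulmoides for 5 weeks, and the Control group received no extract. Total liver RNA was measured on Agilent 1-colour arrays, 500 ng per array. The labels give no age, and nothing beyond their mention of each rat says that every array came from a different animal, so the p-values rest on the spread among these arrays, which may be technical in part.

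A ribosome holds 1 copy of nearly every one of these proteins, and the cell makes them in step with one another. Their mRNAs are among the most abundant in any tissue, and many begin with a tract of pyrimidines through which the TOR kinase pathway sets how strongly they are translated when nutrients change. Control of that kind acts on translation and need not alter the mRNA level, which is what the arrays measured. Whether a smaller signal in liver came from fewer cells of a type or from less RNA per cell cannot be told apart in these samples.

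Values below are log2 signals relative to the 75th percentile of the same array, so a value of 0 is the signal at that percentile. Differences are Eucommia minus Control. A gene is called where limma's adjusted p, over all 25128 features, was under 0.05. Where a gene had several probes, the values are those of the probe with the highest mean.

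Before the results, 4 facts of the arrays bear on them. The 4 Eucommia arrays shared a slide and the 4 Control arrays shared another, and a slide effect cannot be told apart from the extract. The share of spots well above background was 70.7% ± 1.17 on the Eucommia arrays and 59.8% ± 1.17 on the Control arrays (SD, n = 4 each), and all 71 parental genes were well above background on all 8 arrays. The raw 75th percentile, the value each array was scaled by, ran from 219 to 239 units on the Eucommia arrays and from 227 to 279 on the Control arrays. Among all features, 74.9% of the called ones were higher in Eucommia livers, against 32.3% when arrays were centred on their medians instead.

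The sequences that follow show the start regions of the 3 called parental genes, of Rpl22l1, and of 3 parental genes that were not called (Rplp0, Rpl19 and Rpl31, chosen as clear examples after their sequences were seen). They are RefSeq sequences of the rat assembly GRCr8, 30 bases before the annotated transcription start and 20 bases from it, read 5′ to 3′ on the gene's strand. Capitals mark the longest run of C and T that begins with C near the start. 
Rps26, chr7:1643385-1643434, minus strand: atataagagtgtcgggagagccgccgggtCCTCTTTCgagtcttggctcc
Rps27a, chr14:107488922-107488971, minus strand, the first of its annotated starts: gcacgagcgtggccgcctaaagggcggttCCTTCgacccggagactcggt
Rpl38, chr10:100200405-100200454, plus strand: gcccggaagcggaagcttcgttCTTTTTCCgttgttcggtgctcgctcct
Rpl22l1, chr2:113683166-113683215, plus strand, no such run of 5 or more bases: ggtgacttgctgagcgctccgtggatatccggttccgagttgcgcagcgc
Rplp0, chr12:46718371-46718420, minus strand: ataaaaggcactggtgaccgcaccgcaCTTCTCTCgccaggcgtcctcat
Rpl19, chr10:83519034-83519083, plus strand: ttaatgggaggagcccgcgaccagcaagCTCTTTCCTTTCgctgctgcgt
Rpl31, chr9:49143081-49143130, plus strand: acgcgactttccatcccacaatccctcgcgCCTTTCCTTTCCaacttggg
In Rpl31 the run begins on the start base itself. In Rps26 it begins 1 base before it, and in Rpl38 it begins 8 bases before it.

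The table of promoters held 57 of the 71 parental genes and 3 of the 5 tested copies. Members with no entry include Rpl37al2, Rps29, Rpl30, Rps20, Rpl8, Rpl15, Rpl7, Rpl32, Rpl23a, Rpl37l1, Rps25 and Rpl27. A start on C followed by 4 pyrimidines was present in 22 of the 57 parental genes (38.6%), against 2.63% of all 27457 promoters. A run of 8 or more C or T beginning with C, within 20 bases on either side of the start, was present in 39 of 57 (68.4%), against 11.7% of all promoters. The same start on C was present in 0 of the 3 copies. The letters CGGAAG, read on either strand anywhere in the 300 bases, were present in 32 of 57 parental promoters (56.1%), against 17.4% of all promoters, and also in 26 of 51 promoters of the mitochondrial ribosome list. These matches describe the annotated sequence and are not evidence of a working site.

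Across the set, the ribosomal protein genes moved little. No member was called higher and 5 of 76 were called lower, 3 of them parental genes (Rps26, Rps27a and Rpl38) and 2 copies (Rpl37al2 and Rpl22l1). Among all features, 6.17% were called lower and 18.4% were called higher. Among the 1975 features with a mean signal above 4, where 66 of the parental genes lie, 5.47% were called lower and 2.33% higher. The count of 3 in 71 parental genes was thus near that background. The median difference of the parental genes was -0.06, with quartiles of -0.15 and 0.00, beside a median of 0.02 over all features and of -0.05 over those with a mean signal above 4. The sign of this median depended on the scaling, since it was 0.02 after quantile normalization and 0.00 after cyclic loess, and it was -0.32 after median centring, which moved the median of all features to -0.24.

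The parental genes also lay close to 0. Their differences lay within 0.3 in 67 of 71 genes (94.4%), against 58.9% of all features and 86.1% of those with a mean signal above 4. The SD within a group had a median of 0.14 over parental genes, 0.20 over all features and 0.14 over those with a mean signal above 4. At the unadjusted p of 0.05, 10 of 71 parental genes passed limma's test (14.1%), a smaller share than the 35.7% of all features and the 17.1% of those with a mean signal above 4. The split was 7 of 28 small subunit genes (25%), above that 17.1%, and 3 of 43 large subunit genes (6.98%).

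**Figure D1:**
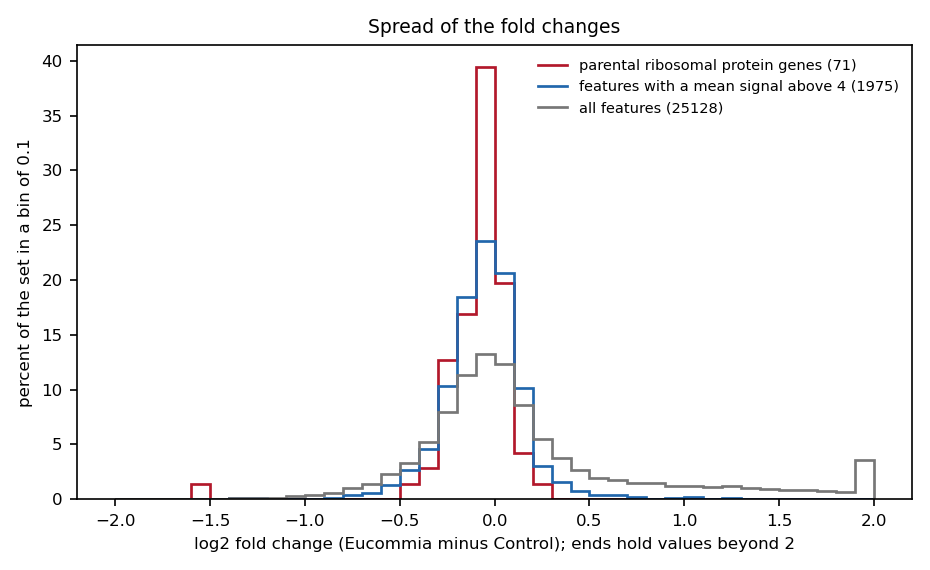
Percent of each set (vertical axis) in bins of 0.1 of the log2 difference, Eucommia minus Control (horizontal axis), for the 71 parental ribosomal protein genes in red, the 1975 features with a mean signal above 4 in blue and all 25128 features in grey. The parental genes form a narrow peak with 1 gene, Rps26, standing alone near -1.59.

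The small subunit binds the mRNA and reads the code. Of its 28 parental genes, 2 were called lower and 0 higher, 24 had a negative difference, and the median difference was -0.10. A negative difference was also found in 1229 of the 1975 features with a mean signal above 4. Rps26, a protein near the channel through which mRNA leaves the small subunit, had log2 signals of -0.66, 0.13, 0.52 and 0.82 on the 4 Eucommia arrays, against 1.50, 2.03, 1.84 and 1.82 on the 4 Control arrays. Every Eucommia value was below every Control value. The mean was 0.20 ± 0.64 in Eucommia livers and 1.80 ± 0.22 in Control livers (SD, n = 4 each). The difference was -1.59 ± 0.29 (SE), or 3.02-fold lower, with an adjusted p of 0.00349 in limma. It passed the test under all 22 settings tried, between -1.85 and -1.31. The 22 include the main fit and a fit on the deposited series table, which holds the same values, so they are not independent checks.

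Rps27a is made as a fusion of ubiquitin with a small subunit protein. It had signals of 6.45, 6.55, 6.48 and 6.92 on the Eucommia arrays, against 6.89, 7.25, 7.05 and 6.91 on the Control arrays. The Eucommia 4 value lay within the Control range, so the groups overlapped. The difference was -0.43 ± 0.13 (SE) with an adjusted p of 0.0491 in limma, just under the threshold. It passed under 11 of the 22 settings. Taking the percentile over probes detected on all arrays gave an adjusted p of 0.0523 in limma. The call did not hold up when single arrays were left out, and passed only without Eucommia 4 (adjusted p = 0.0146 in limma). Without Eucommia 1, 2 or 3 the adjusted p in limma was 0.131, 0.127 and 0.131, and without Control 1, 2, 3 or 4 it was 0.0538, 0.114, 0.0939 and 0.0628.

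Of the small subunit genes that were not called, Rps24 and Rps2 lay nearest the threshold, and the genes of this paragraph are named because of their values. Rps24 had 5.51, 5.45, 5.56 and 5.73 in Eucommia livers, against 5.79, 6.01, 5.86 and 5.75 in Control livers. The groups did not overlap, but the gap between Eucommia 4 and Control 4 was narrow, and the difference of -0.29 ± 0.10 (SE) had an adjusted p of 0.0673 in limma. Rps2, on the side of the subunit where mRNA enters, had a difference of -0.29 ± 0.10 (SE) and an adjusted p of 0.0678 in limma. Rps14 and Rps29 differed by -0.27 ± 0.11 and -0.26 ± 0.11 (SE), with overlapping groups and adjusted p of 0.117 and 0.124 in limma. Rps4x, encoded on the X chromosome, had non-overlapping groups with a difference of -0.21 ± 0.09 (SE) and an adjusted p of 0.137 in limma.

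Members at which signalling or disease work often looks showed small differences. Rps6, the substrate after which the S6 kinases are named, had 8.43, 8.50, 8.49 and 8.76 in Eucommia livers, against 8.52, 8.83, 8.65 and 8.52 in Control livers. The groups overlapped, and the difference was -0.09 ± 0.11 (SE, adjusted p = 0.633 in limma). Rpsa, a small subunit protein also known as the laminin receptor, differed by -0.02 ± 0.11 (SE, adjusted p = 0.934 in limma). The sign of both differences changed under at least 1 setting, 3 settings for Rps6 and 9 for Rpsa.

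The large subunit forms the peptide bond. Of its 43 parental genes, 1 was called lower and 0 higher, 29 had a negative difference, and the median difference was -0.02. Rpl38, a protein known in mouse for its part in the translation of some Hox mRNAs, had 5.93, 5.92, 5.85 and 6.04 on the Eucommia arrays, against 6.17, 6.43, 6.30 and 6.15 on the Control arrays. All Eucommia values were below all Control values. The difference was -0.33 ± 0.10 (SE) with an adjusted p of 0.0352 in limma. It missed the threshold without Eucommia 1, 2 or 3 (adjusted p = 0.0848, 0.0985 and 0.102 in limma) and without Control 2 or 3 (0.0851 and 0.0794).

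Rpl34 and Rpl27 are named here because of their values. Rpl34 had the largest difference of the 43 large subunit genes but a wider spread, and was not called. It had 5.23, 5.24, 5.39 and 5.73 in Eucommia livers, against 5.66, 6.01, 5.77 and 5.72 in Control livers. The Eucommia 4 value lay within the Control range, and the difference was -0.39 ± 0.14 (SE, adjusted p = 0.0694 in limma). Rpl27 was the only parental gene with all Eucommia values above all Control values, at 5.40, 5.45, 5.53 and 5.69 against 5.14, 5.36, 5.30 and 5.23. Its difference was 0.26 ± 0.10 (SE) and was not called in limma (adjusted p = 0.0905), and its second probe gave 0.01. Over all 76 members, 6 had the Eucommia group wholly below and 1 wholly above, against 8.68% and 19.8% of all features. Of the 1975 features with a mean signal above 4, 189 lay wholly below and 87 wholly above. Of the 66 parental genes with such a signal, 3 lay wholly below and 1 wholly above.

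The stalk of the large subunit, where elongation factors dock, is built from Rplp0, Rplp1 and Rplp2. Rplp0 had 2.17, 2.05, 2.21 and 2.13 in Eucommia livers, against 1.96, 2.07, 1.94 and 2.07 in Control livers, with overlapping groups. Its difference of 0.13 ± 0.08 (SE) was not called in limma (adjusted p = 0.323). Rplp1 differed by 0.01 ± 0.11 and Rplp2 by 0.02 ± 0.10 (SE), neither called, and the sign of all 3 stalk genes turned under median centring. Rpl5 and Rpl11, which travel with the small ribosomal RNA of the large subunit and can bind the p53 regulator Mdm2 when ribosome assembly is disturbed, differed by -0.17 ± 0.11 and 0.05 ± 0.12 (SE). Rpl10, which joins the large subunit late in its maturation, differed by 0.00 ± 0.13 (SE). None of the 3 was called in limma, with adjusted p of 0.307, 0.795 and 0.999, and the sign of Rpl11 and Rpl10 changed under some settings.

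**Figure D2:**
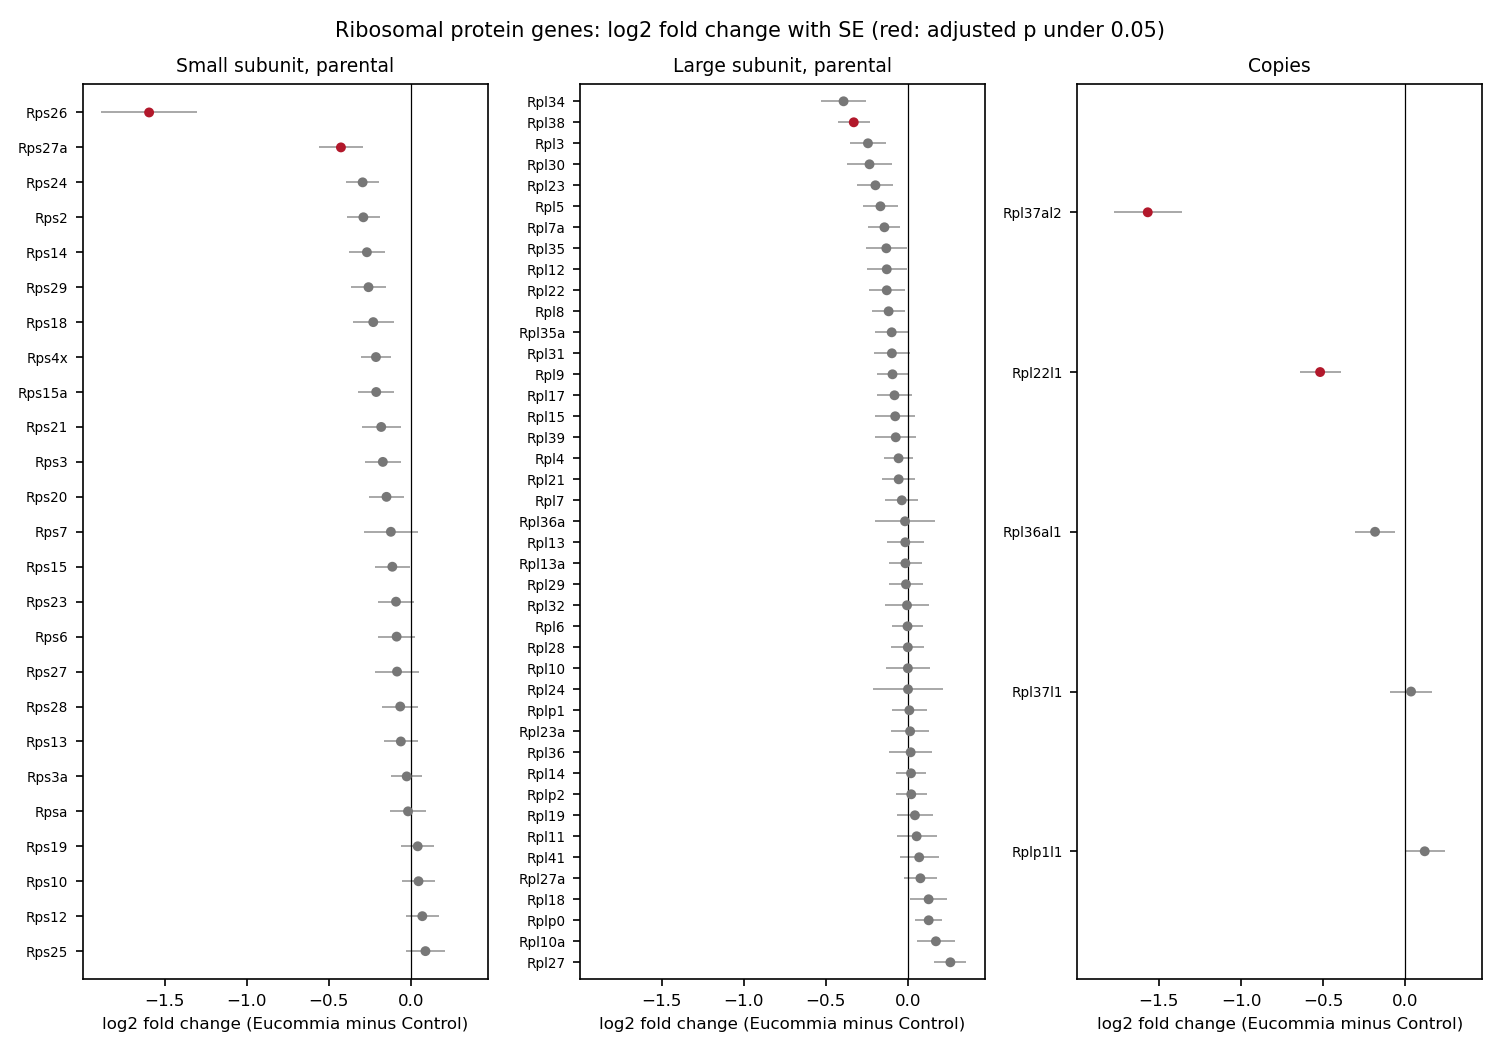
Log2 difference, Eucommia minus Control (horizontal axis), with its SE for 72 of the 76 tested members, ordered by size within the small subunit, the large subunit and the copies. Red points are the 5 called genes, all of them lower in Eucommia livers, and grey points were not called.

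Of the 5 copies that were tested, 2 were called lower and 0 higher, with a median difference of -0.18. Rpl37al2, annotated as a like copy of the large subunit gene Rpl37a, had 1.54, 1.92, 2.37 and 2.45 on the Eucommia arrays, against 3.44, 3.88, 3.68 and 3.55 on the Control arrays. Every Eucommia value was below every Control value by a wide margin. The means were 2.07 ± 0.43 in Eucommia livers and 3.64 ± 0.19 in Control livers (SD, n = 4 each). The difference was -1.57 ± 0.21 (SE), or 2.96-fold lower, with an adjusted p of 0.000518 in limma, and it passed under all 22 settings, between -1.82 and -1.39. The RefSeq table lists 13 pseudogenes and 4 like copies of Rpl37a, and Rpl37a itself has no named probe here.

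Rpl22l1 is a paralogue of Rpl22 that in mouse can take its place in the ribosome. It had 0.62, 0.48, 0.36 and 0.87 on the Eucommia arrays, against 1.07, 1.26, 1.06 and 1.001 on the Control arrays, with no overlap. The difference was -0.52 ± 0.12 (SE) with an adjusted p of 0.0154 in limma. Its second probe differed by -0.50 and was also called when probes were tested singly. Without Eucommia 2 the adjusted p in limma was 0.0573, just past the threshold. Rpl22 itself had 4.23, 4.23, 4.30 and 4.54 in Eucommia livers, against 4.31, 4.61, 4.52 and 4.38 in Control livers, a difference of -0.13 ± 0.11 (SE) that was not called in limma (adjusted p = 0.455).

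Copies were also set against their parents within each array, a comparison added after the data were seen. The log2 difference between Rpl22l1 and Rpl22 was -3.74 ± 0.14 in Eucommia livers and -3.36 ± 0.09 in Control livers (SD, n = 4 each), a change of -0.39. The exact 2-sided permutation test gave 0.0286, the smallest p that 4 against 4 arrays allow, and 0.0857 after adjustment over the 3 pairs. Rpl36al1 changed by -0.17 against Rpl36a (exact permutation p = 0.0571, adjusted 0.0857), and Rplp1l1 by 0.11 against Rplp1 (exact permutation p = 0.2). None of the 3 passed after adjustment. A ratio of 2 probes shows only that they moved unequally, since probes differ in how well they bind.

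**Figure D3:**
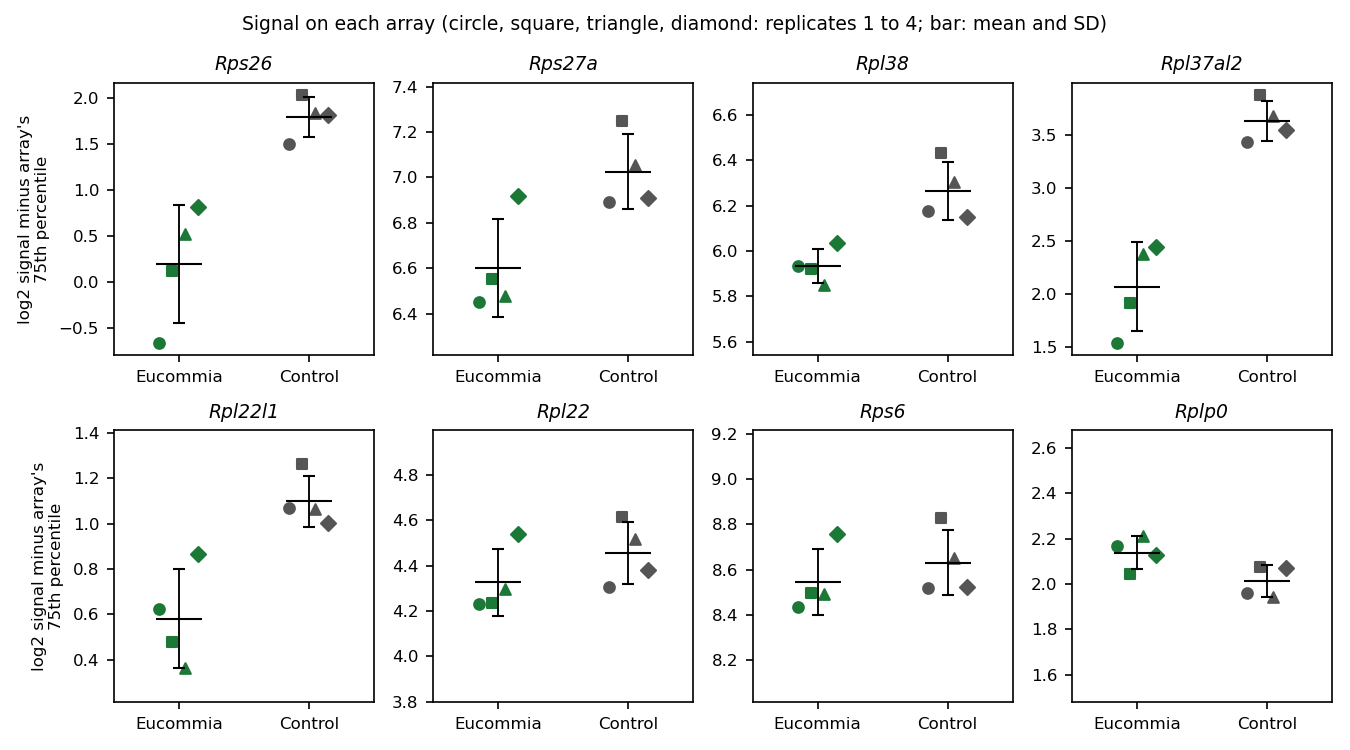
Log2 signal relative to the array's 75th percentile (vertical axis) of the 5 called members and of Rpl22, Rps6 and Rplp0 on each array, with Eucommia left and Control right; symbols mark the replicates, and the horizontal and vertical bars give the mean and SD of 4 arrays. Rps26 and Rpl37al2 are clearly separated between groups, whereas Rps27a, Rpl22, Rps6 and Rplp0 overlap.

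Ribosomal protein genes have many processed pseudogenes, and each of the 71 parental genes has at least 1 in the RefSeq table. It lists 839 in all, with a median of 11 per gene and a maximum of 36. Rps26 has 11 pseudogenes and 4 like copies, Rps27a has 29 pseudogenes, Rpl38 has 7 pseudogenes and 6 like copies, and Rpl22 has 2 pseudogenes and 4 like copies, Rpl22l1 included. The scanner files hold no probe sequences, so how much of a signal came from a near-identical copy was not tested, and single-gene values are uncertain to that extent.

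A second probe gave a check on 25 members. Both Rpl22l1 probes were called, and no probe of the other 24 genes was. Signs differed between probes in 13 of the 25 genes. The widest was Rps2, whose 4 probes gave -0.29, -0.28, -0.10 and 0.31. Rpl29 had 4 probes between -0.12 and 0.25, and Rpl21 had 5 between -0.16 and 0.11. Both Rpsa probes gave -0.02. Rps26, Rps27a, Rpl38 and Rpl37al2 each had 1 probe, so their calls have no such check.

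**Figure D4:**
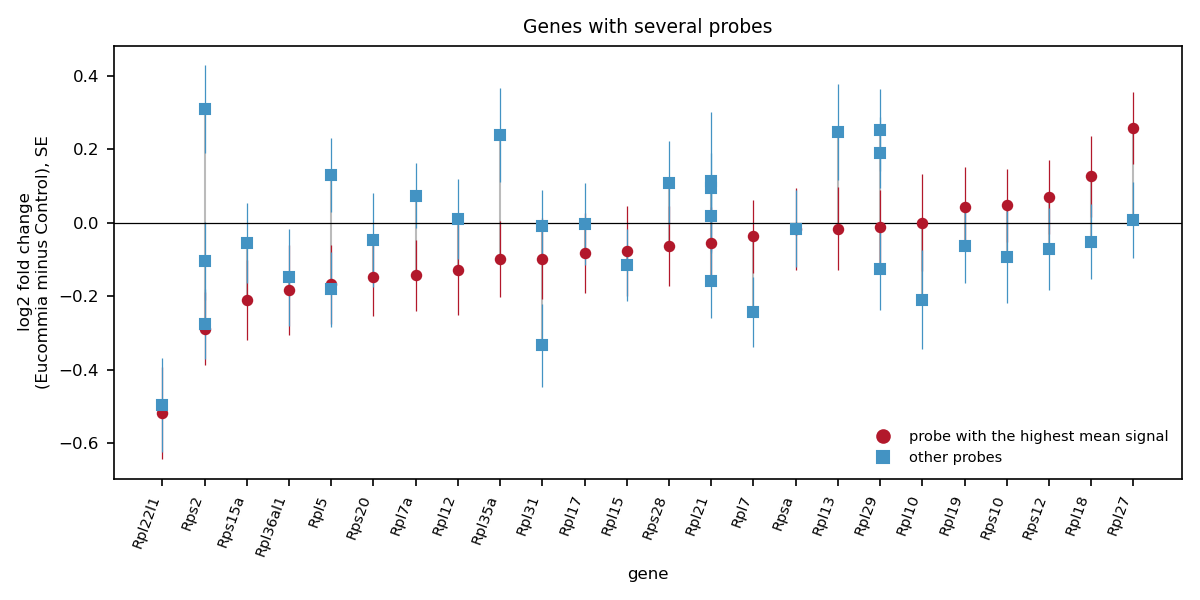
Log2 difference, Eucommia minus Control, with its SE (vertical axis) for each probe of 24 of the 25 members with several tested probes (horizontal axis). Red circles are the probes that represent the gene and blue squares are the others; only the 2 probes of Rpl22l1 lie far below 0 together, and the probes of Rps2 spread from -0.29 to 0.31.

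The parental genes moved together from array to array. Their median signal was 6.33, 6.37, 6.39 and 6.58 on Eucommia arrays 1 to 4, against 6.38, 6.66, 6.52 and 6.48 on Control arrays 1 to 4. The group means of these medians were 6.42 ± 0.11 in Eucommia livers and 6.51 ± 0.11 in Control livers (SD, n = 4 each), a difference smaller than the SD within either group. Of the 71 parental genes, 68 had their highest Eucommia value on Eucommia 4 (95.8%), against 37.4% of all features, and 65 had their highest Control value on Control 2 (91.5%), against 31.1% of all features. The lowest value was on Eucommia 1 in 36 genes and on Control 1 in 45.

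Set against the Control mean of each gene, 66, 63 and 62 of the 71 parental genes were lower on Eucommia 1, 2 and 3, but only 17 were lower on Eucommia 4. On the Control arrays themselves the counts were 67, 1, 28 and 56. The parental median, Rps26 and Rpl37al2 ranked the arrays in the same order within each group. The raw 75th percentile was lowest on Eucommia 4 (219) and on Control 2 (227) within their groups and highest on Eucommia 1 (239) and Control 1 (279), the reverse of the ribosomal protein signal at these 4 arrays, and its part in the pattern was not tested.

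Leaving out Eucommia 4 or Control 2 changed the size of the shift most, in opposite directions. Without Eucommia 4 the parental median difference was -0.12, and 6 parental genes were called lower in limma instead of 3, namely Rps26, Rps27a, Rpl34, Rpl38, Rps24 and Rps2. Without Control 2 the median was -0.01, and Rps26 was the one parental gene called. The count was also 1 without Eucommia 1, 2 or 3, and 2 without Control 1, 3 or 4. The parental median was -0.10 without Control 1 and -0.09 without Control 4. It lay between -0.06 and -0.04 when 1 of the remaining arrays was left out.

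**Figure D5:**
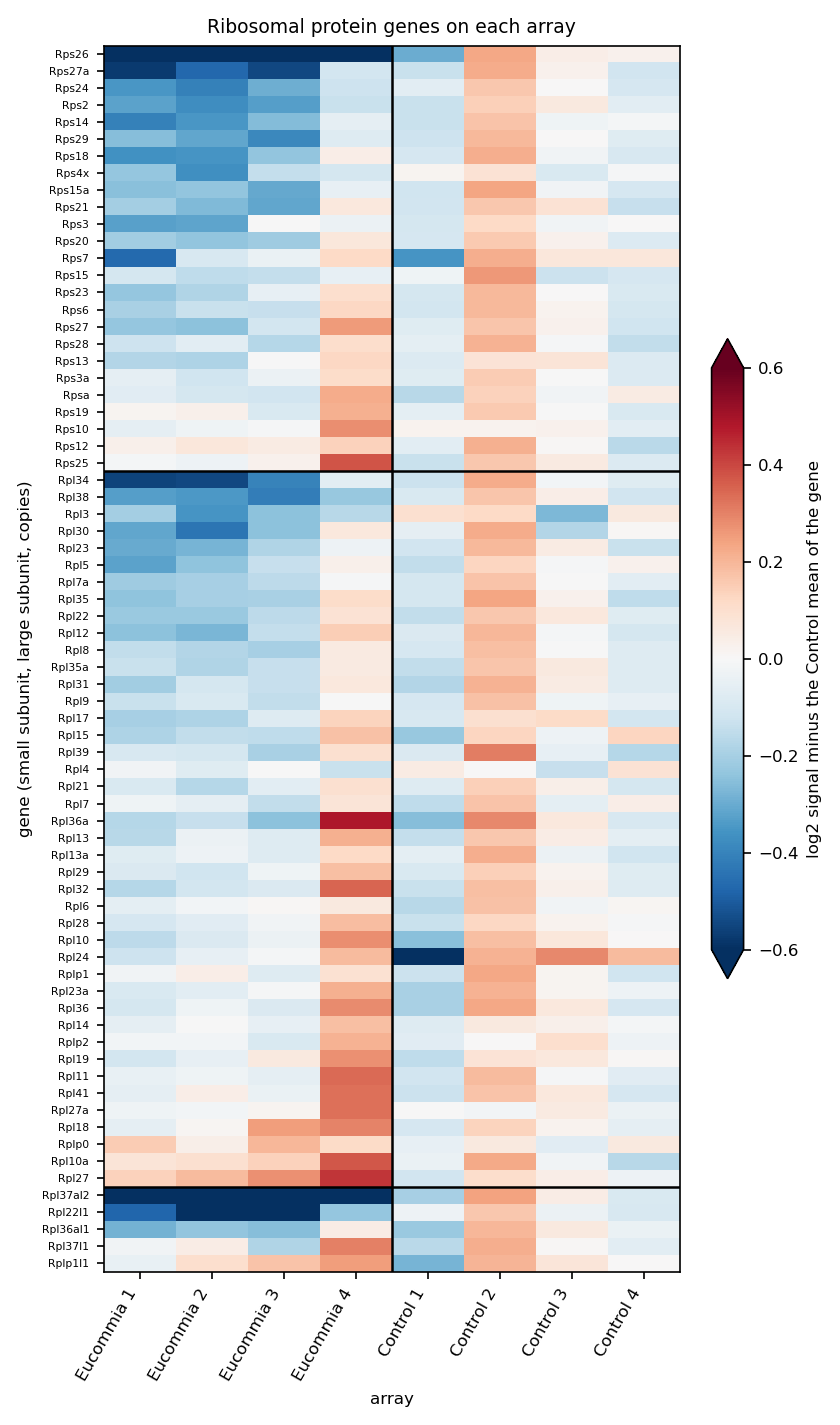
Log2 signal minus the gene's Control mean (colour, blue lower and red higher, limits at 0.6 either way) for 72 of the 76 members (rows) on the 4 Eucommia and the 4 Control arrays (columns), with black lines between the groups and between small subunit, large subunit and copies. Eucommia 4 and Control 2 are red down most of their columns, while Rps26, Rpl37al2 and Rpl22l1 are blue on all 4 Eucommia arrays.

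Genes with and without the start on C were set side by side. The 22 parental genes with the C start described above had a median difference of -0.09, with 17 of 22 negative and 1 called lower, and the 35 with another start had a median of -0.06, with 25 negative and 2 called lower. The difference between these medians was not tested.

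Other parts of the translation machinery were described from the same fit. Fau and Rack1, ribosomal proteins outside the symbol rule, differed by -0.06 and -0.11, and neither was called in limma. Of 9 genes of the elongation list, which also holds Tpt1 and the kinase gene Eef2k, 0 were called, with a median of 0.00. Eef2, the factor that moves the ribosome along, differed by 0.00 ± 0.10 (SE). Of 15 genes of TOR and S6 kinase signalling 0 were called, with a median of -0.03, and the kinase gene Mtor differed by -0.07 ± 0.08 (SE). In these 2 lists, 1 and 2 genes passed an unadjusted p of 0.05 in limma.

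Among 29 genes of the initiation list, which also holds Pabpc1, 2 were called lower and 0 higher, against 6.17% and 18.4% of all features. The median was -0.06. Eif3j, a loosely bound part of the factor that holds the small subunit ready, had 1.24, 1.28, 1.45 and 1.31 in Eucommia livers, against 1.53, 1.57, 1.72 and 1.73 in Control livers. Its groups did not overlap, and the difference was -0.32 ± 0.09 (SE, adjusted p = 0.0341 in limma). Eif3g, another subunit of the same factor, differed by -0.28 ± 0.09 (SE, adjusted p = 0.0464 in limma), also without overlap.

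Among 39 ribosome assembly genes, 2 were called lower and 0 higher, against 6.17% and 18.4% of all features, with a median of 0.01. Nmd3, which carries the new large subunit out of the nucleus, differed by -0.30 ± 0.08 (SE, adjusted p = 0.0293 in limma). Ltv1, which helps mature the small subunit, differed by -0.33 ± 0.09 (SE, adjusted p = 0.0329 in limma). Neither gene's groups overlapped.

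The mitochondrial ribosome is a separate particle, and its 63 tested genes had a median of 0.00. In limma, Mrpl38 was called higher (0.31, adjusted p = 0.0167), and Mrpl16 and Mrpl3 were called lower (-0.34 and -0.29, adjusted p = 0.0260 and 0.0383). Over these 6 lists together, 6 genes were called lower and 1 higher. Leaving out single arrays moved the count of lower calls between 0 and 5, with 0 without Eucommia 2 or Control 3. Among all features, 6.17% were called lower and 18.4% higher. Of the 8960 features with a mean signal above 0, 534 were called lower and 334 higher.

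Markers of liver cell types moved beside these values. All 12 hepatocyte markers were well above background on every array, which fits the labelled tissue, and 11 of 12 were lower in value, with a median of -0.18, further from 0 than the parental median. Of these, 4 had the Eucommia group wholly below, and the called one was the plasma iron carrier Tf, with a difference of -0.55. Among all features, 8.68% lay wholly below, 6.17% were called lower and 18.4% were called higher. The 11 tested macrophage markers were all lower in value, with a median of -0.45, 0 called and 2 at an unadjusted p under 0.05 in limma, and their summed signal relative to the 75th percentile ran from 93.8 to 183 in Eucommia livers and from 116 to 207 in Control livers. Of 8 tested lymphocyte markers, 3 were called higher (Lck, Cd3d and Ptprc), against 18.4% of all features. The other 5 were not called, among them Cd3e at -0.53 and Cd3g at -0.04, which belong to the same receptor complex as Cd3d. The list had a median of 0.12, and its summed signal ran from 3.62 to 4.12 in Eucommia livers and from 2.29 to 3.19 in Control livers. Cd3d was the brightest of the 8 in both groups and weighs most in that sum. Of 7 tested stellate cell markers, 6 were higher in value, with a median of 0.36, and Col1a1 was called higher (0.83). Of 5 endothelial markers Cdh5 was called higher (1.01), and the list had a median of -0.17. Pecam1 was also higher in value but not called, and was well above background on 4 Eucommia arrays and 0 Control arrays. Kdr (-0.26), the brightest of the 5, Lyve1 (-0.17) and Tek (-0.44) were lower in value and not called. The summed endothelial signal ran from 65.7 to 76.5 in Eucommia livers and from 73.6 to 89.4 in Control livers. Of 4 cholangiocyte markers Epcam was called lower (-0.52) and Cftr higher. Cftr was well above background on 4 Eucommia arrays and 0 Control arrays, so it passed the filter through the Eucommia group alone. Its call rests on Control signals that were not well above background. Of 3 erythroid markers 0 were called, with 1 at an unadjusted p under 0.05 in limma. The part of these markers in the ribosomal protein values was not tested.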

How the data were processed

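RNA of 8 liver samples was measured on Agilent 1-colour arrays. The deposited intensities came from Agilent Feature Extraction 10.1.1.1, per the submitters' processing notes. The processed signal was background-subtracted within each array by the authors' software and not normalized between arrays, per the file headers. The deposited flags, of another kind, mark control, outlier and well-above-background spots. The deposited series table equalled the processed signal at 100% of 43379 spots (relative tolerance 1e-06), on a linear scale without centring, with column medians from 26.3 to 32.0.

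Here, the log2 of each processed signal was taken and centred on the array's 75th percentile. Control and outlier spots were left out and spots of a probe were averaged. Probes well above background on at least 4 of 8 arrays were kept (27724 of 41012). Accessions, stripped of versions, were looked up in a RefSeq table of GRCr8, which named 16336 probes. The probe with the highest mean stands for its gene, and each unnamed probe counts as 1 feature. The comparison used limma 3.58.1 (R 4.3.3), 2-sided, with Benjamini-Hochberg adjustment over 25128 features. The fit was tested on simulated data. The number of arrays limits the precision.

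The members, the lists and the tests were chosen with earlier results of these data known. Named are the called members, a list of well-studied members, those with several probes that disagree, and up to 4 called genes of each other list. Members named for their values are said to be. Normexp used the median spot signal, since the files used here hold no mean signal. Cyclic loess, a restriction to features above the 75th percentile, the order of arrays and the pairs of copy and parent were added after the data were seen. A few genes are counted in the totals but not reported singly or drawn here.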

Additional observations from a re-analysis of the deposited data

Results flagged for a closer look

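In 6 of 58 groups of 4 arrays, 1 array stood apart from the other 3; its gap to the nearest, as a share of the group's range, was past the critical value of Dixon's test. Chance gives about 1 in 20 such groups. In 5 of the 6 the array was Eucommia 4 and it was the highest. Rpsa was 4.71 there, against 4.37 to 4.42 on the other Eucommia arrays. Rpl11 was 7.24, against 6.84 to 6.87. Rpl36al1, the copy, was 6.98, against 6.66 to 6.70, and its parent Rpl36a was 5.28, against 4.55 to 4.66. Rps10 was 5.23, against 4.89 to 4.94. The groups are not independent, since the ribosomal protein genes moved together from array to array. The sixth was Rps10 on Control 4, at 4.88, against 4.97 on each of the other Control arrays. None of these genes was called between the groups.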

How the results depend on the processing

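Rps26 and Rpl37al2 were called lower under all 22 settings, the main fit included. Quantile normalization called 5 parental genes lower and 1 higher, normexp correction with quantile normalization 9 and 4, trended robust variance 6 and 1, and cyclic loess 4 and 1; taking the percentile among probes detected on all arrays called 2 lower, without Rps27a, and 1 higher. The parental gene called higher in each was Rpl27, with Rpl10a, Rpl18 and Rpl19 besides it under normexp. Median centring called 39 parental genes lower, with a parental median of -0.32 and a median of -0.44 over copies. It also moved the median of all features by -0.26. Relative to that median the parental genes lay at -0.08, as with the percentile. That match was fixed in advance, since both scalings subtract 1 value from each array. Relative to the median of all features, the parental median lay at 0.04 with quantile normalization, 0.02 with cyclic loess and 0.01 with normexp and quantile normalization. Leaving out single arrays called 1 to 6 parental genes and 1 to 2 copies lower, with parental medians from -0.12 to -0.01. With the replicate block, 1 parental gene and 1 copy were called lower; numbered pairs did not deviate together (correlations from -0.10 to -0.03), so the samples share only a number.

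Over all features, lower calls were 1551, against 2926 with quantile normalization, 7954 with median centring, 2692 with normexp, 7380 with no filter, 988 with the block, 2753 with cyclic loess and 432 among features above the 75th percentile. Higher calls were 4623, against 2323 where probes had to be above background on all 8 arrays and 313 among features above the 75th percentile. Leaving out single arrays gave 785 to 1326 lower and 2509 to 4602 higher. In the translation lists, lower and higher calls were 6 and 1, against 7 and 7 with quantile normalization, 76 and 0 with median centring, 3 and 3 with the other percentile, 13 and 12 with normexp, 9 and 4 with trended variance, 2 and 0 with the block, 7 and 5 with cyclic loess, and 5 and 0 among features above the 75th percentile; leaving out arrays gave 0 to 5 and 0 to 3. The cause of these moves was not tested. A slide block was not run, since each slide holds 1 group.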
